A study of Ovis aries with 2 samples.

Results

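The genes described here are 9 genes of the split between CD4 and CD8 T cells, picked by name from the 26814 gene names of the count tables. They are the coreceptor genes CD4, CD8A and CD8B, the transcription factor genes ZBTB7B, RUNX3, GATA3, BCL11B and TSHZ2, and the signalling gene THEMIS. All 9 were found. They were followed in single blood cells of sheep (Ovis aries) in 2 libraries. One library came from lambs that carried A.G.-ES, a suture eluting astragaloside IV and glycyrrhizic acid that had been embedded at both ST36 acupoints before blood was drawn. The other came from untreated animals. Breed, age, sex, dose, the time from embedding to bleeding and the number of animals per library are not given in the labels used here, and the labels list no suture without drug. Peripheral blood mononuclear cells were taken from the interface of a HISTOPAQUE 1083 gradient and counted as unique molecular identifiers (UMIs, 1 per captured RNA molecule) with a droplet kit that reads the 3′ end of transcripts. With 1 library per group no test between the groups exists, and every interval below is an exact 95% interval that covers counting error only.

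A T cell carries either CD4, which binds class II MHC, or CD8, which binds class I MHC, and both coreceptors bring the kinase LCK to the T-cell receptor. In mice, ZBTB7B (ThPOK) directs thymocytes to the CD4 lineage, while RUNX3 silences Cd4 and directs them to the CD8 lineage. GATA3 acts early in T cells and again in the CD4 lineage, BCL11B is needed for T-cell commitment, and THEMIS tunes receptor signalling during selection. TSHZ2 encodes a zinc finger and homeobox protein. Ruminant blood also holds many gamma-delta T cells, which mostly carry neither coreceptor.

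The A.G.-ES table held 9638 barcodes with 44485442 UMIs, and the untreated table held 8246 barcodes with 55861418 UMIs. After filters on depth and the removal of likely doublets, 8737 barcodes of the A.G.-ES library (median 4101 UMIs) and 7565 of the untreated library (median 5123 UMIs) remained. Both libraries share 61 barcode strings. UMIs of 85 Y-linked genes numbered 755 in the A.G.-ES library and 40414 in the untreated library, so the libraries differ in sex-linked RNA as well as in the suture. The suture, this difference and any other between the animals cannot be told apart in the values below.

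CD3-positive barcodes, those with at least 1 UMI of CD3D or CD3E, numbered 6174 (70.7% of kept barcodes, median 4062 UMIs) in the A.G.-ES library and 3779 (49.95%, median 4188 UMIs) in the untreated library. CD3G was not analysed here. Barcodes with no CD3 UMI were classed by markers. The A.G.-ES library had 1686 B, 189 monocyte and 58 NK barcodes, and the untreated library had 3242 B, 123 monocyte and 28 NK barcodes. The CD3-positive, B and monocyte classes fit their markers. CD3E stood at 1329 CPM (UMIs per 1000000 UMIs of the class) in CD3-positive barcodes of the A.G.-ES library. In those of the untreated library it stood at 1273 CPM. MS4A1, which encodes the B-cell protein CD20, stood at 693 CPM in A.G.-ES and 756 CPM in untreated B barcodes. VCAN, a monocyte gene, stood at 4427 CPM in A.G.-ES and 5183 CPM in untreated monocyte barcodes. KLRF1, an NK receptor gene, stood at 51.1 CPM in A.G.-ES and 41.6 CPM in untreated NK barcodes.

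The CD3-positive class is not pure. B-marker RNA was present in it at a summed level that differed between the libraries: MS4A1 stood at 53.7 CPM in the A.G.-ES library and 122 CPM in the untreated library. Of the CD3-positive barcodes, 680 in the A.G.-ES library and 916 in the untreated library held at least 3 UMIs over 7 B markers. CD79A, one of the 7, was also present in CD8B-positive barcodes, at 163 CPM in the A.G.-ES library and 168 CPM in the untreated library. MS4A1 stood in them at 9.05 CPM (A.G.-ES) and 18.3 CPM (untreated). Ratios are therefore also given for CD3-positive barcodes with at most 1 B-marker UMI and at most 1 monocyte-marker UMI, called clean below.

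CD4 was detected in 1673 CD3-positive barcodes (27.1%) of the A.G.-ES library and in 454 (12%) of the untreated library. With every barcode thinned to 1500 UMIs the shares were 14.4% (13.5 to 15.3) in A.G.-ES and 6.21% (5.44 to 7.05) in untreated CD3-positive barcodes. In B barcodes (median 4940.5 UMIs in A.G.-ES, 8562.5 in untreated) they were 0.617% in A.G.-ES and 0.0322% in untreated. Its level was 119 CPM (115 to 123) with A.G.-ES and 45.2 CPM (42.2 to 48.3) untreated, a ratio of 2.63 (2.44 to 2.83). CD4 was near its floor in monocyte and NK barcodes. It had 1 UMI in the 189 monocyte barcodes of the A.G.-ES library and 0 in the 123 of the untreated library, which, by a floor of 3 counts, allows a share of up to 2.44%. In NK barcodes it had 3 UMIs in the A.G.-ES library and 0 in the untreated library. B barcodes had 65 CD4 UMIs in the A.G.-ES library, where a small set described further on held most of them, and 6 in the untreated library.

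CD8A and CD8B encode the chains of CD8, which pair as alpha-alpha or alpha-beta dimers. They are neighbours in the RefSeq annotation of ARS-UI_Ramb_v3.0, with 1 gene between them and 0 protein-coding ones. CD8A stood at 40.1 CPM (37.7 to 42.5) in CD3-positive barcodes of the A.G.-ES library and 25.1 CPM (22.9 to 27.4) in those of the untreated library. Thinned to 1500 UMIs it was present in 5.78% of A.G.-ES and 2.70% of untreated CD3-positive barcodes (11.5% and 6.22% unthinned, in A.G.-ES and untreated), against 0.247% of A.G.-ES and 0.0645% of untreated B barcodes. Its detection in T cells was thus well above that in B cells. CD8B stood at 59.0 CPM (56.2 to 62.0) with A.G.-ES and 44.7 CPM (41.8 to 47.8) untreated. Its thinned shares were 7.46% in A.G.-ES and 3.96% in untreated (14.1% and 9.50% unthinned, in A.G.-ES and untreated). In monocyte barcodes CD8B had a thinned share of 0.546% in A.G.-ES and 2.80% in untreated, from few barcodes, while CD4 and CD8A had 0 in both libraries. Levels are not compared between genes, since a 3′ count depends on how well each transcript is captured.

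Of the transcription factor genes, ZBTB7B gave the fewest UMIs in CD3-positive barcodes, a count that also depends on how well its transcript is captured. It had 165 UMIs in CD3-positive barcodes of the A.G.-ES library (6.11 CPM, 5.21 to 7.11) and 69 UMIs in those of the untreated library (3.58 CPM, 2.78 to 4.53). It was present in all 4 classes. Monocyte barcodes had the most among classes with more than 1 UMI, 20.9 CPM (13.5 to 30.9) with A.G.-ES and 14.8 CPM (6.37 to 29.1) untreated, and B barcodes had 8.56 CPM (6.78 to 10.6) with A.G.-ES and 5.11 CPM (4.33 to 5.99) untreated. The intervals of monocyte and CD3-positive barcodes did not overlap in either library, and NK barcodes, with 1 UMI in each library, could not be placed.

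RUNX3 was highest in NK barcodes, at 1205 CPM (1028 to 1404) with A.G.-ES and 1457 CPM (1192 to 1764) untreated. CD3-positive barcodes followed with 376 CPM (369 to 384) in A.G.-ES and 287 CPM (279 to 295) in untreated. B barcodes had 112 CPM (106 to 119) in A.G.-ES and 64.1 CPM (61.2 to 67.0) in untreated, and monocyte barcodes 48.5 CPM (36.8 to 62.7) in A.G.-ES and 46.1 CPM (29.9 to 68.1) in untreated. The order was the same in both libraries, but B and monocyte intervals overlapped in the untreated one. Thinned to 1500 UMIs, RUNX3 was present in 34.0% of CD3-positive barcodes of the A.G.-ES library and 31.4% of those of the untreated library, and in 15.2% of A.G.-ES and 10.2% of untreated B barcodes.

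GATA3, BCL11B and THEMIS RNA stood higher in T and NK barcodes than in B and monocyte barcodes. NK barcodes were shallow, with a median of 2126 UMIs in A.G.-ES and 1955.5 in untreated. They were gated on NCR1 without CD3, so they can also hold T cells whose CD3 RNA was missed. NCR1 was present in 422 CD3-positive barcodes of A.G.-ES and 144 of untreated. The part of such T cells in the NK levels was not tested. GATA3 stood at 884 CPM (873 to 895) in CD3-positive barcodes of the A.G.-ES library and 725 CPM (713 to 737) in those of the untreated library. Its share went the other way, 49.9% in A.G.-ES and 55.5% in untreated after thinning, so no order of the libraries is read from it. NK barcodes had 424 CPM in A.G.-ES and 139 CPM in untreated, and B barcodes had 9.95 CPM in A.G.-ES and 4.26 CPM in untreated. The NK level in untreated rests on 10 UMIs. BCL11B stood at 429 CPM in A.G.-ES and 313 CPM in untreated CD3-positive barcodes. Its intervals in NK barcodes, 399 to 646 CPM in A.G.-ES and 202 to 479 CPM in untreated, included those values. THEMIS stood at 173 CPM (168 to 178) in A.G.-ES and 80.0 CPM (76.0 to 84.1) in untreated CD3-positive barcodes. In NK barcodes it stood at 358 CPM (265 to 473, from 49 UMIs in 15 barcodes) in A.G.-ES and 194 CPM (106 to 326, from 14 UMIs in 8 barcodes) in untreated. One A.G.-ES barcode held 14 of the 49 UMIs. Both NK intervals lie above the pooled CD3-positive level, but they include the level of CD4-positive T barcodes, 278 CPM in A.G.-ES and 232 CPM in untreated. The intervals leave out differences between cells, so no order of NK and T barcodes is read from them. In B and monocyte barcodes of both libraries the highest level of BCL11B was 5.54 CPM and that of THEMIS 3.34 CPM.

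TSHZ2, the gene with the widest gap between the libraries, stood at 202 CPM (196 to 207) in CD3-positive barcodes of the A.G.-ES library and 42.0 CPM (39.2 to 45.0) in those of the untreated library. It sat in few cells, 19.5% of them in A.G.-ES and 4.02% in untreated (13.7% and 2.81% after thinning, in A.G.-ES and untreated), at up to 48 UMIs in one A.G.-ES and 37 UMIs in one untreated barcode. In NK barcodes all 16 UMIs of the A.G.-ES library came from 1 barcode, and there were 0 UMIs in the untreated library. B barcodes had 36 UMIs in A.G.-ES and 6 in untreated.

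**Figure D1:**
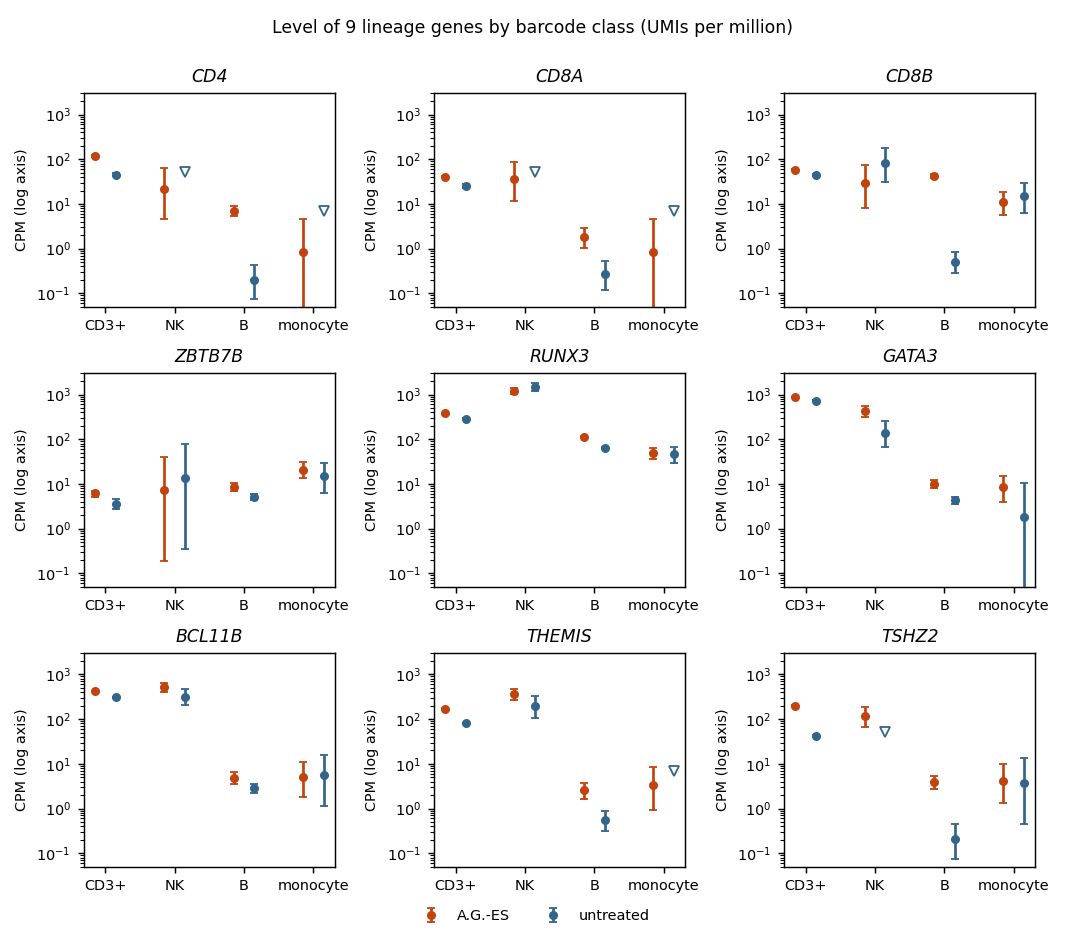
Level of each of the 9 genes in CD3-positive, NK, B and monocyte barcodes, in CPM on a log axis, with the A.G.-ES library (orange) left of the untreated library (blue). Points are summed levels of 1 library with exact 95% Poisson intervals, and open triangles mark the upper limit where there were 0 UMIs. ZBTB7B is higher in monocyte than in B or CD3-positive barcodes (its NK level rests on 1 UMI per library), RUNX3 is highest in NK barcodes, and CD8B differs between the libraries in B barcodes.

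In CD3-positive barcodes, 5 of the 9 genes stood at least 1.5-fold higher in the A.G.-ES library and 0 at least 1.5-fold lower. Those shares were 8.45% higher and 14.4% lower among the 10559 genes with at least 100 UMIs. The median log2 ratio was 0.68 over the 9 genes and -0.14 over all those genes. The 5 genes were TSHZ2 (log2 ratio 2.26, 2.16 to 2.37), CD4 (1.39, 1.28 to 1.5), THEMIS (1.11, 1.03 to 1.20), ZBTB7B (0.77, 0.36 to 1.20) and CD8A (0.68, 0.52 to 0.84). The other 4 were BCL11B (0.46), CD8B (0.40), RUNX3 (0.39) and GATA3 (0.29). In clean barcodes, 4995 in the A.G.-ES library and 2271 in the untreated library, the log2 ratio was 1.70 for TSHZ2, 0.86 for CD4, 0.85 for THEMIS, 1.09 for CD8A and 0.03 for GATA3. ZBTB7B was under 1.5-fold there, at 0.46, so 4 of the 9 genes were past it in place of 5, against 7.01% of all genes (11.1% the other way). With CD79A left out of the B markers, a choice made after seeing the data, CD4 was at 1.24 and CD8A at 0.84.

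Genes that work beside the 9 were counted from lists, which were chosen with earlier results of these data known. Of all 10559 genes with at least 100 UMIs, 8.45% stood at least 1.5-fold higher in CD3-positive barcodes of A.G.-ES and 14.4% lower. Of 17 measured genes of coreceptor signalling, 7 passed 1.5-fold upwards in CD3-positive barcodes of the A.G.-ES library and 0 downwards. Among them CD6, a receptor that associates with the T-cell receptor, stood at 116 CPM in the A.G.-ES library and 52.4 CPM in the untreated library. CD2, an adhesion receptor, stood at 94.4 CPM in A.G.-ES and 46.1 CPM in untreated. Of 14 genes of helper cells 7 were higher and 1 lower, with CTLA4, an inhibitory receptor, at 47.6 CPM in the A.G.-ES library and 6.85 CPM in the untreated library. Of 12 measured cytotoxic genes 8 were higher and 0 lower, with the chemokine gene CCL5 at 782 CPM in A.G.-ES and 144 CPM in untreated. Of 21 transcriptional partners of the 9 genes with at least 100 UMIs, 2 were higher and 1 lower. The higher count is near the share of all genes, so no result about the partners is read from it. The higher ones were ID2, an inhibitor of E proteins, at 99.8 CPM in A.G.-ES and 41.5 CPM in untreated, and SATB1, a chromatin organiser, at 1436 CPM in A.G.-ES and 810 CPM in untreated. The lower one was ID3, a relative of ID2, at 15.5 CPM in A.G.-ES and 49.1 CPM in untreated. In a level summed over CD3-positive barcodes, more cells of a type and more RNA per cell cannot be told apart, so the genes were next measured within classes of T cells.

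CD4-positive T barcodes (at least 1 CD4 UMI and 0 CD8 UMIs) numbered 1545 in the A.G.-ES library, 25.0% of CD3-positive barcodes, and 406 in the untreated library, 10.7%. CD8B-positive T barcodes (at least 1 CD8B UMI and 0 CD4 UMIs) numbered 753 (12.2%) in A.G.-ES and 312 (8.26%) in untreated. Barcodes with CD8A as their one coreceptor numbered 328 (5.31%) in A.G.-ES and 75 (1.98%) in untreated. Those with neither CD4 nor CD8 numbered 3420 (55.4%) in A.G.-ES and 2938 (77.7%) in untreated. A droplet captures part of a cell's RNA, so this last class can also hold T cells whose coreceptor RNA was missed.

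In both libraries CD4-positive barcodes had more TSHZ2 and GATA3 RNA and less RUNX3 RNA than CD8B-positive barcodes. TSHZ2 stood at 473 CPM in CD4-positive barcodes and 19.8 CPM in CD8B-positive ones of the A.G.-ES library, and at 199 CPM in CD4-positive and 13.3 CPM in CD8B-positive ones of the untreated library. Its log2 ratios, here and below CD4-positive over CD8B-positive, were 4.58 (4.24 to 4.94) in A.G.-ES and 3.90 (3.38 to 4.47) in untreated. From the CD4 side it ranked 2 in A.G.-ES and 5 in untreated among 6747 genes. GATA3 was also higher on the CD4 side, with 1142 CPM against 349 CPM on the CD8B side in A.G.-ES and 1291 CPM against 296 CPM in untreated, and log2 ratios of 1.71 (1.63 to 1.80) in A.G.-ES and 2.13 (2.01 to 2.25) in untreated. RUNX3 was lower on the CD4 side, with 265 CPM against 831 CPM on the CD8B side in A.G.-ES and 240 CPM against 633 CPM in untreated, and log2 ratios of -1.65 (-1.73 to -1.56) in A.G.-ES and -1.40 (-1.55 to -1.26) in untreated. BCL11B, at 0.20 in A.G.-ES and 0.28 in untreated, and THEMIS, at 0.42 in A.G.-ES and 0.13 in untreated, were within 1.5-fold. So of the 5 genes outside the gates with at least 100 UMIs, 2 stood higher and 1 lower by 1.5-fold or more in CD4-positive barcodes of each library. Of all genes past that minimum 11.2% stood higher and 7.76% lower in CD4-positive barcodes of A.G.-ES, and 11.9% higher and 16.9% lower in those of untreated.

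ZBTB7B could not be placed. It had 48 UMIs in CD4-positive and 26 in CD8B-positive barcodes of the A.G.-ES library, a log2 ratio of -0.17 (-0.89 to 0.58), and 13 UMIs in CD4-positive and 8 in CD8B-positive barcodes of the untreated library, a log2 ratio of 0.79 (-0.59 to 2.27). Both intervals include 0. The A.G.-ES interval narrowly excludes a level 1.5-fold higher in CD4-positive barcodes, for counting error only, but not one 1.5-fold lower. The untreated interval excludes neither. A difference was thus not detected at this depth.

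**Figure D2:**
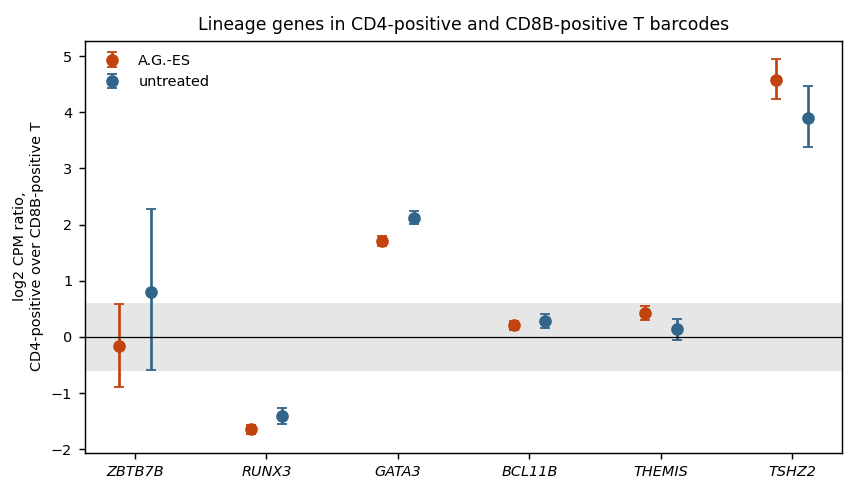
Log2 ratio of the level in CD4-positive T barcodes over that in CD8B-positive T barcodes for the 6 genes that did not set the gates, in the A.G.-ES library (orange, left) and the untreated library (blue). Bars are exact 95% counting intervals of 1 library each and the grey band spans less than 1.5-fold. TSHZ2 and GATA3 lie above the band, RUNX3 below it, BCL11B and THEMIS in it, and the intervals of ZBTB7B cross 0.

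The genes farthest apart between these classes in both libraries were, on the CD4 side after TSHZ2, SDK1, BTBD3, TAFA2, TJP1, HLF, TNFRSF4 (the costimulatory receptor OX40), CHDH, UST and IL6R. TAFA2, which encodes a secreted chemokine-like protein, stood at 766 CPM in CD4-positive and 103 CPM in CD8B-positive barcodes of the A.G.-ES library, and at 1295 CPM in CD4-positive and 133 CPM in CD8B-positive ones of the untreated library. On the CD8B side they were GNLY, CCL5, PRF1, CTSW, FCER1G, EOMES, GZMM, KLRK1, NCR1 and CD244, which hold granule, chemokine and NK-receptor genes. GNLY, the granule protein granulysin, stood at 111 CPM in CD4-positive and 5363 CPM in CD8B-positive barcodes of the A.G.-ES library, and at 8.43 CPM in CD4-positive and 3925 CPM in CD8B-positive ones of the untreated library. Of the helper genes with at least 100 UMIs, 11 of 13 in the A.G.-ES library and 7 of 8 in the untreated library were at least 1.5-fold higher in CD4-positive barcodes. TIMP1, listed as a helper gene, was lower there in both, with log2 ratios of -1.26 in A.G.-ES and -1.11 in untreated. Of the cytotoxic genes, 10 of 11 in A.G.-ES and 9 of 10 in untreated were lower. Among all genes past the minimum, 11.2% stood higher and 7.76% lower in CD4-positive barcodes of A.G.-ES. In those of untreated, 11.9% stood higher and 16.9% lower. Among transcriptional partners LEF1, a factor of the Wnt pathway, had log2 ratios of 2.49 in A.G.-ES and 2.35 in untreated. Among signalling genes LCK had log2 ratios of -0.51 in A.G.-ES and -0.81 in untreated, past 1.5-fold in the untreated library.

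Barcodes with CD8A alone were close to CD8B-positive ones in RUNX3, with 823 CPM against 831 CPM in A.G.-ES and 547 CPM against 633 CPM in untreated. For THEMIS they had 172 CPM against 208 CPM in A.G.-ES and 69.0 CPM against 212 CPM in untreated, where the class rests on 75 barcodes. SOX13, which encodes a transcription factor, stood at 12.7 CPM in CD8A-only barcodes of the A.G.-ES library and 116 CPM in those of the untreated library, and its part in the difference was not tested. T barcodes with NCR1, an NK receptor gene, had 831 CPM of RUNX3 in the A.G.-ES library and 863 CPM in the untreated library. FOXP3-positive barcodes, which hold the factor of regulatory T cells, numbered 107 in A.G.-ES and 65 in untreated. They had 1741 CPM of GATA3 in the A.G.-ES library and 1633 CPM in the untreated library, above the CD4-positive barcodes by log2 ratios of 0.61 (0.51 to 0.71) in A.G.-ES and 0.34 (0.21 to 0.47) in untreated. THEMIS was lower in them than in CD4-positive barcodes, by log2 ratios of -1.19 (-1.58 to -0.82) in A.G.-ES and -2.17 (-2.92 to -1.51) in untreated. CD4 was detected in 48.6% of the FOXP3-positive barcodes in A.G.-ES and 53.8% in untreated, and the 7 B markers summed to 269 CPM in A.G.-ES and 707 CPM in untreated, against 75.6 CPM in A.G.-ES and 159 CPM in untreated CD4-positive barcodes. RHEX stood at 44.8 CPM in A.G.-ES and 92.1 CPM in untreated, against 8.03 CPM in A.G.-ES and 8.88 CPM in untreated CD4-positive barcodes. The part of these markers in the GATA3 and THEMIS differences was not tested.

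Within CD4-positive barcodes 1 of the 5 genes that did not set the gate and had at least 100 UMIs, TSHZ2, was at least 1.5-fold higher in the A.G.-ES library, against 5.69% of 6999 genes higher and 13.7% lower. It stood at 473 CPM in the A.G.-ES library and 199 CPM in the untreated library, a log2 ratio of 1.25 (1.10 to 1.39). The other 4 lay between -0.18 for GATA3 and 0.26 for THEMIS. FOXP3 stood at 8.17 CPM in CD4-positive barcodes of the A.G.-ES library and 20.0 CPM in those of the untreated library, and the summed level of 4 cycling genes at 70.1 CPM in A.G.-ES and 382 CPM in untreated. Their part in the TSHZ2 values was not tested. In FOXP3-positive barcodes TSHZ2 stood at 261 CPM in the A.G.-ES library and 70.4 CPM in the untreated library, from 128 UMIs in A.G.-ES and 26 in untreated.

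Within CD8B-positive barcodes 0 of the 6 genes that did not set the gate and had at least 100 UMIs were 1.5-fold apart, where 6.73% of 5987 genes stood higher and 27.1% lower by that much in A.G.-ES. RUNX3 stood at 831 CPM in the A.G.-ES library and 633 CPM in the untreated library, a log2 ratio of 0.39 (0.30 to 0.48). CD8A stood at 173 CPM in A.G.-ES and 159 CPM in untreated, a log2 ratio of 0.12 (-0.07 to 0.31). The cycling genes summed to 120 CPM in the A.G.-ES library and 896 CPM in the untreated library, and their part in the classes' differences was not tested. TSHZ2 was at 0.57 (-0.05 to 1.22) from 70 UMIs in A.G.-ES and 32 in untreated, and it was at -0.59 in clean barcodes and -0.75 with all barcodes thinned.

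**Figure D3:**
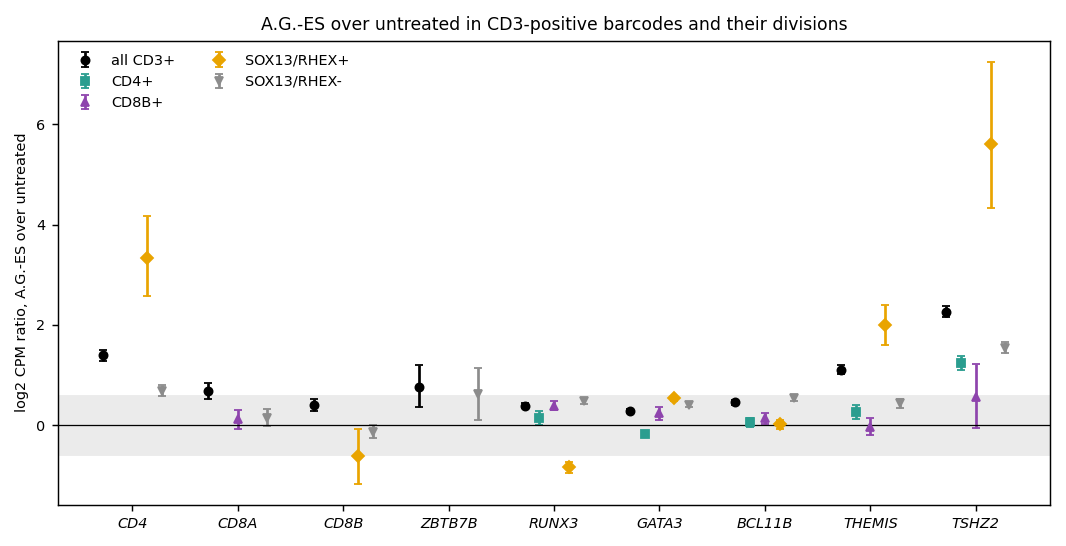
Log2 ratio of the A.G.-ES library over the untreated library for each of the 9 genes in all CD3-positive barcodes and in 4 divisions of them, where at least 100 UMIs were counted and the gene did not set the gate. Bars are exact 95% counting intervals with 1 library per group and the grey band spans less than 1.5-fold. TSHZ2 lies above the band in 4 of the 5 series, RUNX3 lies below it in SOX13/RHEX-positive barcodes, and CD4, TSHZ2 and THEMIS reach their highest ratios there.

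SOX13 encodes a transcription factor known from gamma-delta T cells of mice. It was used with RHEX to divide the CD3-positive barcodes, and no gamma-delta receptor gene was analysed here, so the class is called by these genes. Barcodes with a UMI of either numbered 1182 (19.1% of CD3-positive barcodes) in the A.G.-ES library and 2291 (60.6%) in the untreated library. Compared with the remaining CD3-positive barcodes of the same library they held little coreceptor RNA. The log2 ratio was -3.01 in the A.G.-ES library and -5.66 in the untreated library for CD4. It was -3.18 in A.G.-ES and -2.72 in untreated for CD8A, and -3.22 in A.G.-ES and -2.75 in untreated for CD8B. THEMIS (-2.72 in A.G.-ES, -4.27 in untreated) and TSHZ2 (-3.28 in A.G.-ES, -7.34 in untreated) were low as well. GATA3 was higher in them, at 0.63 in A.G.-ES and 0.51 in untreated, and BCL11B was at -0.52 in A.G.-ES and 0.00 in untreated. RUNX3 was at -1.53 (-1.63 to -1.42) in the A.G.-ES library and -0.20 (-0.28 to -0.12) in the untreated library. Of all genes 18.5% stood at least 1.5-fold lower and 5.18% higher in SOX13/RHEX-positive barcodes of A.G.-ES, and 26.2% lower and 9.65% higher in those of untreated.

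Between the libraries, SOX13/RHEX-positive barcodes had 150 CPM of RUNX3 in the A.G.-ES library and 267 CPM in the untreated library, a log2 ratio of -0.84 (-0.95 to -0.72). GATA3 stood at 1237 CPM in the A.G.-ES library and 850 CPM in the untreated library, a log2 ratio of 0.54 (0.49 to 0.59). CD4 had 93 UMIs in A.G.-ES and 17 in untreated (log2 ratio 3.34), THEMIS 164 in A.G.-ES and 76 in untreated (1.99), and TSHZ2 131 in A.G.-ES and 5 in untreated (5.60). In all, 3 of 7 genes with at least 100 UMIs were past 1.5-fold upwards and 2 downwards, against 4.84% upwards and 12% downwards of 7936 genes. CD4 and TSHZ2 reached that minimum mostly through the A.G.-ES library, where they were high. CD8B reached it mostly through the untreated library, where it was high. No result is therefore read from these counts. The genes lower in A.G.-ES were RUNX3 and CD8B, and neither held under every setting. RUNX3 was at -0.56, under 1.5-fold, with doublets kept and over all deposited barcodes, and CD8B, at -0.60, turned direction under 4 settings. CD4-positive barcodes are a larger share of T cells in the A.G.-ES library (25.0%, against 10.7%), and the part of free or doublet RNA of those cells in the CD4, THEMIS and TSHZ2 values was not tested. MS4A1 stood at 15.9 CPM in A.G.-ES and 24.9 CPM in untreated in this class.

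In SOX13/RHEX-negative barcodes 3 of 9 genes, CD4, ZBTB7B and TSHZ2, were at least 1.5-fold higher in the A.G.-ES library, against 8.58% of 9889 genes higher and 20% lower. CD4 stood at 143 CPM in the A.G.-ES library and 88.7 CPM in the untreated library, a log2 ratio of 0.69. MS4A1 stood at 62.8 CPM in this class of the A.G.-ES library and 220 CPM in that of the untreated library. With all barcodes thinned to 1500 UMIs the CD4 ratio was 0.17. In clean barcodes CD4 was at 0.06 and THEMIS at 0.04, while TSHZ2 was at 0.88. With CD79A left out of the B markers CD4 was at 0.16, THEMIS at 0.00 and TSHZ2 at 1.01. So once barcodes with B-marker RNA and with SOX13 or RHEX were set aside, TSHZ2 was the 1 gene of the 9 that stayed at least 1.5-fold apart.

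Pairs of genes were then counted in single barcodes, all thinned to 1500 UMIs (5902 CD3-positive barcodes of the A.G.-ES library and 3590 of the untreated library). CD4 and CD8A were never seen together. There were 0 such barcodes in either library, where the product of the single shares would give 49.1 in the A.G.-ES library and 6.03 in the untreated library. Unthinned, the pair was seen in 15 barcodes of A.G.-ES and 4 of untreated. CD4 and CD8B were seen together in 25 barcodes of the A.G.-ES library and 5 of the untreated library, against 63.3 in A.G.-ES and 8.82 in untreated from the product. Unthinned, 118 in A.G.-ES (7.05% of CD4-positive ones) and 47 in untreated (10.4%) held both, and in the untreated library that count passes the 43.1 from the product. So after thinning CD8B was found beside CD4 in some barcodes and CD8A in none. This contrast was not confined to CD4-positive barcodes. Unthinned, CD8B was in 6.35% of A.G.-ES and 5.69% of untreated monocyte barcodes, and CD8A in 0.529% of A.G.-ES and 0 of untreated ones. In B barcodes CD8B was in 2.43% of A.G.-ES and 0.432% of untreated ones, and CD8A in 0.830% and 0.247%, in A.G.-ES and untreated. Most of the A.G.-ES gap in B barcodes came from a small set of barcodes described below. Without that set, CD8B was in 0.904% and CD8A in 0.663% of A.G.-ES B barcodes, so little of the contrast was left there. The part of free CD8B RNA in the pairs was not tested.

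The unthinned barcodes with CD4 and CD8B but no CD8A numbered 113 in the A.G.-ES library and 44 in the untreated library. They had 908 CPM of GATA3 in A.G.-ES and 1085 CPM in untreated, and 267 CPM of RUNX3 in A.G.-ES and 313 CPM in untreated. These levels were nearer to those of CD4-positive than of CD8B-positive barcodes. BCL11B (371 CPM in A.G.-ES, 415 CPM in untreated) and THEMIS (170 CPM in A.G.-ES, 219 CPM in untreated) were nearer to the CD8B-positive levels. TSHZ2 stood at 228 CPM in A.G.-ES, under the 473 CPM of CD4-positive barcodes, and at 331 CPM in untreated, above their 199 CPM. GNLY stood in this class at 113 CPM in A.G.-ES and 12 CPM in untreated, far under its level in CD8B-positive barcodes. C1R, which marks a small set of barcodes described below, stood in them at 353 CPM in the A.G.-ES library, all from 5 of the 113 barcodes, and at 0 in the untreated library.

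CD8A and CD8B were found together in 103 thinned barcodes of the A.G.-ES library and 36 of the untreated library, against 25.4 in A.G.-ES and 3.84 in untreated from the product. Of CD8B-positive barcodes 23.4% in the A.G.-ES library and 25.4% in the untreated library also held CD8A, and of CD8A-positive ones 30.2% in A.G.-ES and 37.1% in untreated held CD8B. Unthinned, the CD8A shares were 42.4% in A.G.-ES and 44.3% in untreated, and the CD8B shares 52.2% in A.G.-ES and 67.7% in untreated. These shares climb with depth, so they do not give the share of cells with both chains.

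TSHZ2 went with CD4. In the A.G.-ES library 29.9% of CD4-positive thinned barcodes held TSHZ2, against 11% of CD4-negative ones, and in the untreated library 11.7% of CD4-positive ones did, against 2.23% of CD4-negative ones. CD8A and TSHZ2 were together in 2 barcodes of the A.G.-ES library and 0 of the untreated library, against 46.7 in A.G.-ES and 2.73 in untreated from the product. RUNX3 went with CD8. It was in 60.7% of CD8A-positive and 32.4% of CD8A-negative barcodes of the A.G.-ES library, and in 68.0% of CD8A-positive and 30.4% of CD8A-negative ones of the untreated library. GATA3 was in 20.2% of CD8A-positive and 51.7% of CD8A-negative barcodes of the A.G.-ES library, and in 27.8% of CD8A-positive and 56.3% of CD8A-negative ones of the untreated library. THEMIS sat on both sides. In the A.G.-ES library it was in 26.7% of CD4-positive and 22.3% of CD8B-positive barcodes, and in the untreated library in 26.5% of CD4-positive and 33.1% of CD8B-positive ones. The product takes all CD3-positive barcodes as one pool, and SOX13/RHEX-positive barcodes, which hold little CD4, CD8, THEMIS or TSHZ2 RNA, are 19.1% of that pool in A.G.-ES and 60.6% in untreated. Their part in the pair counts was not tested.

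**Figure D4:**
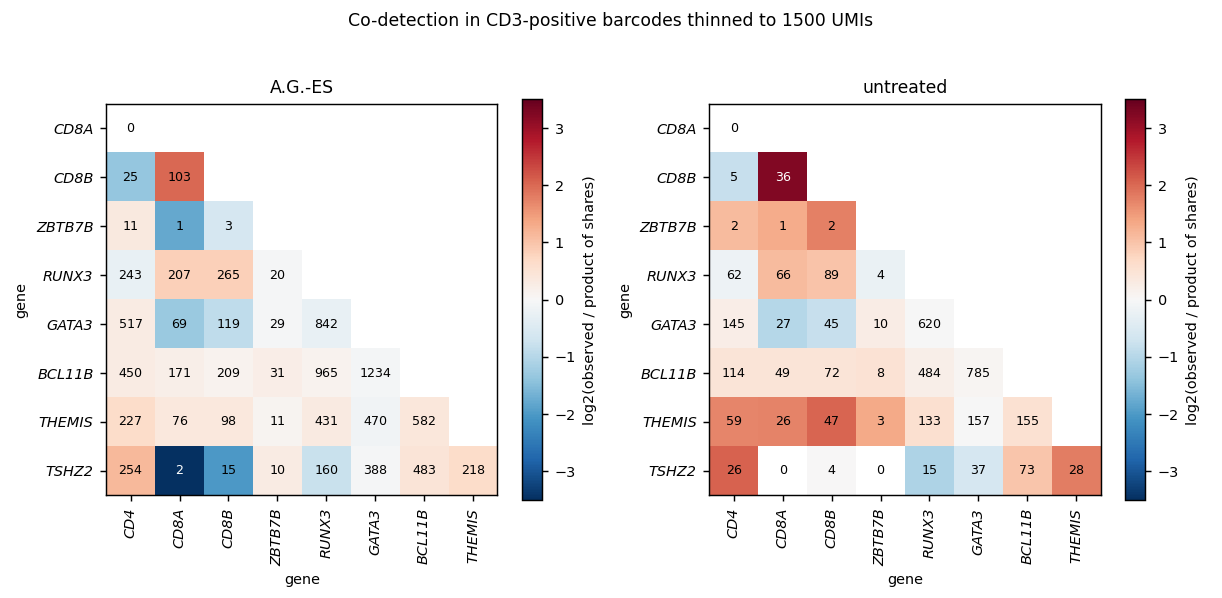
Pairwise detection of the 9 genes in CD3-positive barcodes thinned to 1500 UMIs, A.G.-ES library left and untreated library right. Each cell gives the number of barcodes with both genes, and its colour the log2 of that number over the product of the single shares (red more, blue fewer, white where the number is 0). CD8A with CD8B is the reddest pair of the A.G.-ES library, and CD4 with CD8A has 0 barcodes in both.

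CD8B also stood out outside T cells. B barcodes had 402 CD8B UMIs (43.0 CPM, 38.9 to 47.4) with A.G.-ES and 15 (0.507 CPM, 0.284 to 0.837) untreated. All 5 of the genes with at least 100 UMIs in B barcodes were at least 1.5-fold higher in the A.G.-ES library, against 10.5% of 9850 genes higher and 16.7% lower. CD8B entered this count only through the A.G.-ES library. Without a small set of barcodes described below it had 17 UMIs there and 15 in untreated, under the minimum. Their log2 ratios were 6.41 for CD8B, 1.22 for GATA3, 0.81 for RUNX3, 0.76 for BCL11B and 0.74 for ZBTB7B. With barcodes thinned to 1500 UMIs 2 of the 5 stayed past 1.5-fold, and GATA3 was at 0.46 and RUNX3 at 0.55. With every cell given the same weight 3 did, and BCL11B was at 0.12. Other T and NK genes were higher in the same class, with CCL5 at 27.6 CPM in A.G.-ES and 8.08 CPM in untreated, KLRK1 at 17.6 CPM in A.G.-ES and 2.81 CPM in untreated, and LCK at 8.56 CPM in A.G.-ES and 3.21 CPM in untreated. The part of T-cell or NK-cell RNA in the B class was not tested. Almost all of the CD8B UMIs sat in a small set of barcodes, which was defined after seeing the data by at least 5 UMIs over C1R, MXRA8 and CDH2. There were 46 such barcodes in the A.G.-ES library (median 12335.5 UMIs) and 0 in the untreated library. Of these, 26 were in the B class, 9 in the CD3-positive class and 11 in none. The 26 held 385 of the 402 CD8B UMIs (95.8%) and 50 of the 65 CD4 UMIs (76.9%) of the B class.

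All 46 barcodes held CD8B, at 3 to 30 UMIs with a median of 13, and CD8B stood at 1131 CPM in them, above the 396 CPM of CD8B-positive T barcodes of the same library. CD4 stood at 144 CPM, CD8A at 10.6 CPM and RUNX3 at 17.7 CPM. CD3D was at 0 and CD3E at 17.7 CPM. CD79A stood at 259 CPM but MS4A1 at 1.77 CPM, against 693 CPM in the B class. FCER1G, the common chain of Fc receptors, stood at 682 CPM, and the monocyte gene CD14 was at 0. FLT3, a receptor of dendritic cells and progenitors, stood at 106 CPM. CLEC9A, XCR1 and BATF3, genes of a subset of dendritic cells, were each at 0. CLEC9A was also at 0 in CD3-positive, NK and monocyte barcodes of both libraries. The type of these 46 barcodes was not tested. Of the genes listed for antibody-secreting cells, JCHAIN stood at 263 CPM, MZB1 at 112 CPM, XBP1 at 312 CPM and DERL3 at 40.8 CPM. Without these barcodes the B class of the A.G.-ES library had 1.89 CPM of CD8B and 1.67 CPM of CD4, and its RUNX3, at 116 CPM against 64.1 CPM in the untreated library, was as high as with them.

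**Figure D5:**
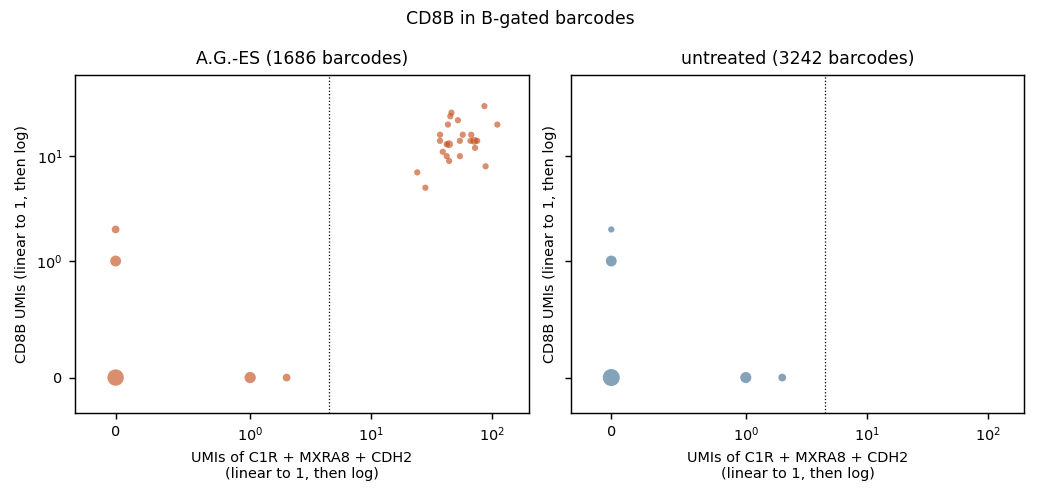
CD8B UMIs against summed UMIs of C1R, MXRA8 and CDH2 in each B barcode, in the A.G.-ES library (left) and the untreated library (right), on axes that are linear up to 1 and logarithmic above. Larger points stand for more barcodes with the same values and the dotted line marks the threshold of 5 UMIs. To the right of it lie 26 barcodes of the A.G.-ES library and 0 of the untreated library.

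Genes whose levels followed 8 of the 9 most closely were looked up over 14 profiles, which are 7 barcode classes in each of 2 libraries. The profiles share libraries and differ in depth, and the gates use CD4, CD8A and CD8B, so Pearson's r of log2(CPM + 10) is a description. RUNX3 was most like SH2D2A, NBEA and IL2RB (each r = 0.98), and GATA3 like PARD3B (0.98). THEMIS was most like RORA (0.97), ZBTB7B like MAP3K11 (0.95) and TSHZ2 like HLF (0.94). The coreceptor genes had no match as close, with RCBTB1 (0.83) for CD4, CRYBG2 (0.85) for CD8A and MAN1B1 (0.68) for CD8B.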

How the data were processed

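Per the labels' protocols, mononuclear cells were loaded on a SeekOne DD 3′ kit and sequenced on a GeneMind sequencer. The deposited matrices hold raw UMI counts per gene and barcode, filtered to cells by the authors. Aligner, counting tool, versions and genome build: not given in the sources used here. All 26814 gene names matched a symbol of RefSeq's ARS-UI_Ramb_v3.0 table.

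From these counts, barcodes with at least 500 UMIs, 200 genes and at most 15% mitochondrial UMIs were kept, and the highest Scrublet scores (scanpy 1.11.5), 0.8% per 1000 barcodes, were removed as doublets (715 in the A.G.-ES library, 523 in the untreated library). Scrublet's own threshold marked 197 in A.G.-ES and 221 in untreated. Barcodes were classed on raw UMIs: CD3-positive with at least 1 UMI, B and monocyte with at least 3 marker UMIs, 0 CD3 and at most 1 of the other list, NK with NCR1. Counts were summed per class and library and divided by the class total (CPM). Intervals are exact Poisson for levels, exact conditional binomial for ratios and Clopper-Pearson for shares, at 95%. A gene entered counts of differences with at least 100 UMIs over both sides, and 1.5-fold was the threshold. Shares were compared after each barcode was thinned to 1500 UMIs, which left out 272 shallower CD3-positive barcodes in the A.G.-ES library and 189 in the untreated library. The code for the ratio intervals was run on simulated independent counts, the model that the intervals assume. Such counts hold no clustering of UMIs in single cells, so this run cannot show how well the intervals cover the real counts. TMM factors came from edgeR 4.0.16 (R 4.3.3).

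Each group is 1 library and no p-value was computed. The 9 genes and all lists were chosen with earlier results of these data known. Named genes were the 2 farthest each way per list, the 10 farthest each way between CD4-positive and CD8B-positive barcodes with at least 50 UMIs per library, and the 3 most alike per gene with at least 500 UMIs. The genes CD3G, ZAP70, GZMA, GZMB, KLRD1, KLRB1 and PF4 were not analysed here. The genes most like BCL11B are not reported here.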

Additional observations from a re-analysis of the deposited data

Results flagged for a closer look

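RUNX3 differed between the libraries in opposite directions in different classes. Its log2 ratio of the A.G.-ES library over the untreated library was 0.15 in CD4-positive T barcodes, 0.39 in CD8B-positive T barcodes, 0.59 in CD8A-only T barcodes and 0.86 in B barcodes without the C1R-high ones. In SOX13/RHEX-positive T barcodes it was -0.84, and -0.56 with doublets kept. The CD8A-only value rests on 75 barcodes in the untreated library. The difference between classes was not tested.

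GATA3 also differed in direction. Its log2 ratio was 0.24 in CD8B-positive T barcodes, 0.54 in SOX13/RHEX-positive T barcodes and 1.26 in B barcodes without the C1R-high ones, and -0.18 in CD4-positive and -0.67 in CD8A-only T barcodes. The CD8A-only value rests on 75 untreated barcodes with 152 GATA3 UMIs. SOX13 stood in that class at 12.7 CPM in A.G.-ES and 116 CPM in untreated, and its part in the GATA3 value was not tested. The sign was not stable in either coreceptor class: over the alternatives GATA3 ran from -0.25 to 0.50 in CD8B-positive and from -0.26 to 0.026 in CD4-positive T barcodes. In the B class with the C1R-high barcodes, reported at 1.22, it was 0.46 with thinned barcodes. The difference between classes was not tested, and the B value rests on 92 UMIs in the A.G.-ES library and 126 in the untreated library.

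CD8B stood at 1131 CPM in the 46 C1R-high barcodes of the A.G.-ES library, a set that is no class of its own in the comparisons between the libraries and that has 0 barcodes in the untreated library. Of these barcodes 26 are counted in the B class and 9 in the CD3-positive class, and 385 of the 402 CD8B UMIs of the A.G.-ES B class come from them.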

How the results depend on the processing

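No paired analysis was possible because each group is 1 library without a replicate number, and for the same reason no library could be left out. Of 576 recalculated log2 ratios of 53 results, 397 stayed within the counting interval of the reported value. The sign turned in 30 values of 13 results. Of these, 25 belonged to 11 results reported within 1.5-fold, among them GATA3, BCL11B, THEMIS and TSHZ2 in CD8B-positive barcodes. ZBTB7B in untreated CD4-positive over CD8B-positive barcodes, at 0.79 from few UMIs, was -0.41 with thinned barcodes. The other 4 were CD8B in SOX13/RHEX-positive barcodes, reported at -0.60: 0.068 with every cell given the same weight, 0.10 in clean barcodes, 0.27 with doublets kept and 0.27 over all deposited barcodes. The cause was not tested. The count of genes at least 1.5-fold higher in CD3-positive barcodes of the A.G.-ES library ranged from 4 to 6, and the lower count was 0 throughout. The share of all genes at least 1.5-fold higher there was 18.5% with no minimum of UMIs and 5.82% with 500. TMM scaling added 0.15 to every log2 ratio in CD3-positive barcodes and 0.26 in CD8B-positive ones, where 2 genes in place of 0 then passed 1.5-fold. In SOX13/RHEX-negative barcodes 7 genes in place of 3 passed it.

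Conditional detection depended on depth. In the A.G.-ES library, CD8A among CD8B-positive barcodes was 12.6% at 1000 UMIs, 34.3% at 2500 and 42.4% unthinned, CD8B among CD8A-positive ones 16.8%, 43.2% and 52.2%, and CD8B among CD4-positive ones 7.05% unthinned. In the untreated library, CD8A among CD8B-positive barcodes was 44.3% unthinned, CD8B among CD8A-positive ones 48.7% at 2500 UMIs and 67.7% unthinned, and CD8B among CD4-positive ones 10.4% unthinned. Between CD4-positive and CD8B-positive barcodes the counts of 2 higher and 1 lower genes held in both libraries under all 7 alternatives. ZBTB7B is limited by its 165 UMIs in A.G.-ES and 69 in untreated CD3-positive barcodes, and NK values by 58 barcodes in A.G.-ES and 28 in untreated.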

Other observations

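The coreceptor genes were also measured in CD3-positive barcodes with at least 3 B-marker UMIs. CD8B stood at 67.4 CPM in those of the A.G.-ES library and 53.8 CPM in those of the untreated library, CD8A at 33.9 CPM in A.G.-ES and 33.7 CPM in untreated, CD4 at 22.7 CPM in A.G.-ES and 7.57 CPM in untreated. CD79A, which encodes a chain of the B-cell receptor, stood at 222 CPM in SOX13/RHEX-positive T barcodes of the A.G.-ES library and 323 CPM in those of the untreated library, and the B genes MS4A1 (15.9 CPM in A.G.-ES, 24.9 CPM in untreated) and PAX5 (7.83 CPM in A.G.-ES, 28.1 CPM in untreated) were low.

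In CD4-positive T barcodes 19.3% of 6999 genes were at least 1.5-fold apart between the libraries in one direction or the other. Among genes of the lists, TOX, a factor of CD4 lineage development in mice, stood at 267 CPM in the A.G.-ES library and 699 CPM in the untreated library, and TNFRSF18, a costimulatory receptor gene, at 29.1 CPM in A.G.-ES and 73.7 CPM in untreated. The cytotoxic genes GNLY (111 CPM in A.G.-ES, 8.43 CPM in untreated) and CTSW (25.3 CPM in A.G.-ES, 3.55 CPM in untreated) were higher in A.G.-ES. GNLY was also higher there in monocyte barcodes (27.6 CPM in A.G.-ES, 5.54 CPM in untreated) and B barcodes (36.6 CPM in A.G.-ES, 29.7 CPM in untreated). The part of free or doublet RNA in the CD4-positive values was not tested.

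Barcodes in no class numbered 630 in the A.G.-ES library and 393 in the untreated library, and they held 478 CPM (A.G.-ES) and 604 CPM (untreated) of GATA3, and 229 CPM (A.G.-ES) and 33.1 CPM (untreated) of TSHZ2.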
